A study of Mus musculus with 8 samples.

Results

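Ketone body synthesis and export is represented here by 6 genes, Acat1, Bdh1, Bdh2, Slc16a1, Slc16a6 and Slc16a7. They were listed by name, though with earlier results of these data known, and all 6 were found among the 21358 genes of the deposited table. Liver RNA of mice kept for 22 weeks on fasting every second day was sequenced in 8 libraries. Of these, 4 (numbers 93, 94, 95 and 96) belonged to feeding glucose (FG) and 4 (101, 103, 104 and 105) to starvation glucose (SG). Both groups shared the fasting regimen, and their names set glucose in the fed state against glucose in the starved state. The series title speaks of a mouse model of metabolic dysfunction. Strain, genotype, sex, age, hour of collection and time since food were not in the labels. The design text gives n = 4 per group but no animal identifiers, so a p-value here covers only how far these libraries spread, which could be technical.

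Ketone bodies are made in liver mitochondria from the acetyl-CoA of fatty acid oxidation and are used by muscle, heart and brain when glucose is scarce. Acetoacetyl-CoA is turned into acetoacetate, part of which is reduced to 3-hydroxybutyrate, and both acids leave the hepatocyte through monocarboxylate transporters. Hepatocytes have too little of the transferase encoded by Oxct1 to burn ketone bodies themselves. Among the members, Acat1 encodes the mitochondrial acetoacetyl-CoA thiolase. Bdh1 encodes the inner-membrane 3-hydroxybutyrate dehydrogenase and Bdh2 a cytosolic short-chain dehydrogenase. Slc16a1, Slc16a7 and Slc16a6 encode the monocarboxylate transporters MCT1, MCT2 and MCT7.

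Upstream sequence was matched by symbol for 3 of the members in the RefSeq table of build GRCm38.p6. It is shown because the dehydrogenase genes Bdh1 and Bdh2 stood on opposite sides of 0 in the comparison of groups, with Slc16a1 beside them as a transporter. Of these 3 genes only Bdh1 passed the test described below. Each stretch is the 250 bases before an annotated start, on the forward strand, 5′ to 3′, with motif matches in capitals.
Bdh1, first start, chr16:31422047-31422296: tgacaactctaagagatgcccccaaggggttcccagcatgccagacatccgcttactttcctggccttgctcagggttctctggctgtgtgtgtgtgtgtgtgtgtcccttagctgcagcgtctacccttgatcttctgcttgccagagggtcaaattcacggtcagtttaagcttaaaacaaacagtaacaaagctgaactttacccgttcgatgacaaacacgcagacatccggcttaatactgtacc
Bdh1, second start, chr16:31428503-31428752: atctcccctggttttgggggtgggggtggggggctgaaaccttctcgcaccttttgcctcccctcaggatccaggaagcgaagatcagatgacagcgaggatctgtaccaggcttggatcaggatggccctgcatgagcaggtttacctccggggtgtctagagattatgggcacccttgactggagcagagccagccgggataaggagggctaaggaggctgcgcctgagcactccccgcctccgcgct
Bdh2, chr3:135280971-135281220: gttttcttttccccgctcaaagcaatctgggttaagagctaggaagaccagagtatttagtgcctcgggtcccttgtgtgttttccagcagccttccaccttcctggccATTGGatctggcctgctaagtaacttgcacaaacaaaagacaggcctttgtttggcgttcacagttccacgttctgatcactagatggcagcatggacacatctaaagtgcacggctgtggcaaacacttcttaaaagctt
Slc16a1, chr3:104638414-104638663: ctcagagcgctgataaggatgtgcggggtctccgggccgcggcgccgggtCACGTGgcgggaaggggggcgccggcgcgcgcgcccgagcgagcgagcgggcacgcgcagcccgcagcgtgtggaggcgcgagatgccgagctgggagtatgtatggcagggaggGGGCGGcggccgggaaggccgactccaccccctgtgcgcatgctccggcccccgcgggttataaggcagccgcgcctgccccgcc
Motifs were searched on both strands. The Bdh2 stretch held the CCAAT box (CCAAT) on the reverse strand, 141 bases before the start, a motif found in 33.8% of the 32851 upstream stretches of this length. The Slc16a1 stretch held the E-box (CACGTG) 200 bases before its start, a motif of 6.02% of stretches. It also held the GC box (GGGCGG) 85 bases before its start, a motif of 32.7% of stretches. Neither Bdh1 stretch held any of these, nor the nuclear receptor site AGGTCA, which 14.0% of stretches hold. The nuclear receptor direct repeat, which contains that site, was in 0.0335% of stretches, the TATA box (TATAAA) in 12.4% and the CREB site (TGACG) in 17.8%, and none of these was in the stretches shown. The Slc16a1 stretch had 76.4% G or C and 37 CG pairs. The Bdh1 stretches had 49.6% and 60.8% with 7 and 9 pairs, and the Bdh2 stretch 48.0% with 5, beside medians of 52.4% and 6 over all stretches. These matches describe letters only, and one value per gene cannot separate transcripts of the first and second Bdh1 start.

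Libraries held 36545128 to 41977438 counted fragments, recovered from the steps of the deposited FPKM values (fragments scaled to gene length and library total). A gene was tested when it reached 1 FPKM in at least 4 libraries, as 9867 genes did. It was called at an adjusted p below 0.05 in limma, with Benjamini-Hochberg adjustment over all tested genes, on log2(FPKM + 1), a scale that understates changes of low genes. The median change of all tested genes was -0.14 on that scale and 0.0056 after median-ratio scaling, which moved the share of lower genes from 80.8% of 1912 calls to 47.6% of 984. The hepatocyte genes Alb (35965 to 49861 FPKM) and Hnf4a (104 to 153 FPKM) were high in every library. Skeletal muscle markers (Acta1, Ckm, Myh4 and Mb) summed to 904 FPKM in FG 93, 280 in SG 104, 106 in SG 105 and 35.5 in FG 96, and to 0.257 to 5.70 in the other 4. Exocrine pancreas markers summed to 151 FPKM in FG 94 and to at most 31.7 elsewhere.

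Among the members, the dehydrogenase gene Bdh1 fell in SG, with a ratio of means of 0.533. Acat1, Bdh2, Slc16a1 and Slc16a7 did not pass the test, and Slc16a6 stayed below 1 FPKM in all 8 libraries and was not tested. Thus 0 of 5 tested members rose and 1 of 5 fell, while 19.4% of all tested genes were called, 3.73% higher and 15.6% lower in SG. The FG and SG values did not overlap in 1 of 5 tested members, beside 26.1% of all tested genes, and 21.8% on the lower side. A share of 1 in 5 is near these backgrounds, which hold without median-ratio scaling. After that scaling 984 of the 9867 tested genes were called, 516 higher and 468 lower in SG. Bdh1 was then still the 1 member called, and 1 gene decides nothing about the members as a set.

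**Figure D1:**
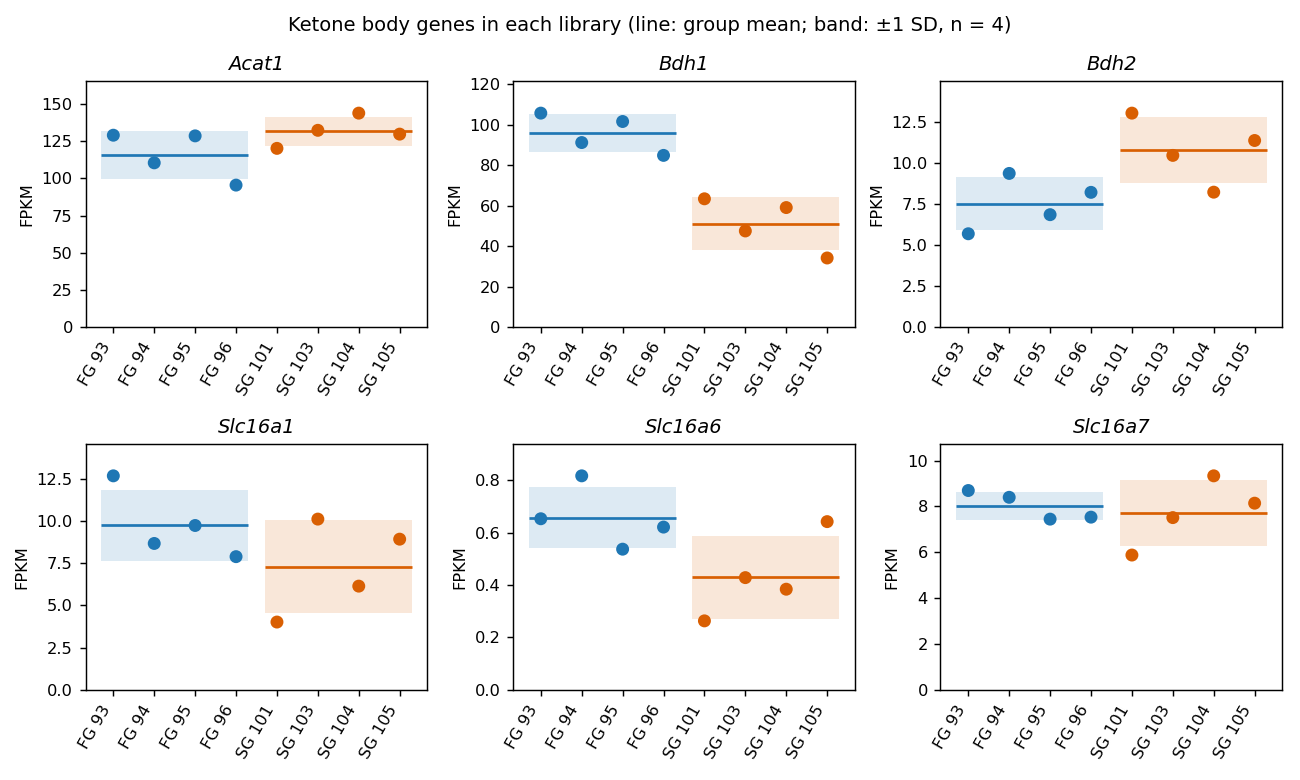
FPKM of the 6 ketone body genes (vertical axes) in each of the 8 libraries (horizontal axes), blue for FG and orange for SG, with the group mean as a line and 1 SD on either side as a band (n = 4 each). Bdh1 lay at 84.9 to 106 FPKM in FG and 34.2 to 63.5 in SG, and in the other 5 genes the groups overlapped.

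Levels per length ordered the members into tiers. Acat1 was the most abundant by its mean over the 8 libraries (124 FPKM, above 94.9% of tested genes), followed by Bdh1 (73.5 FPKM, above 92.1%). In FG these neighbours overlapped, while in SG the lowest Acat1 value of 120 FPKM lay above the highest Bdh1 value of 63.5. The next tier held Bdh2 (9.15 FPKM), Slc16a1 (8.52 FPKM) and Slc16a7 (7.87 FPKM), whose ranges over libraries overlapped one another. Slc16a6 came last, at a median of 0.579 FPKM, and did not overlap any other member. Lengths behind FPKM differ from the annotation for some members: 1172 bases for Bdh2, where GENCODE vM21 exons cover 4250, and 9010 for Slc16a6, where they cover 4883. Levels of those genes relative to others carry that difference, and FPKM ratios between groups of libraries do not.

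Acat1, on chromosome 9 (53580522 to 53610350, GRCm38.p6), supplies the acetoacetyl-CoA from which ketone bodies are made and also ends isoleucine breakdown. Its values were 129, 111, 129 and 95.6 FPKM in FG 93 to 96, and 120, 132, 144 and 130 FPKM in SG 101, 103, 104 and 105, resting on 12731 to 18246 fragments. FG 96 was the lowest library and SG 104 the highest, and the groups overlapped. The means were 116 ± 16.1 and 132 ± 9.75 FPKM (SD, n = 4 each), a log2 difference of 0.19 (95% interval -0.066 to 0.44, limma adjusted p = 0.264). After median-ratio scaling the difference was 0.36 (limma adjusted p = 0.0583), and with limma's array weights it was 0.33 and passed (adjusted p = 0.0446).

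Bdh1, on chromosome 16 (31422297 to 31458901), reduces acetoacetate to 3-hydroxybutyrate at the inner mitochondrial membrane. Its values were 106, 91.3, 102 and 84.9 FPKM in FG 93 to 96, and 63.5, 47.6, 59.1 and 34.2 FPKM in SG 101, 103, 104 and 105. Every FG library lay above every SG library, and SG 105 was the lowest of all. The mean went from 95.9 ± 9.55 to 51.1 ± 13.1 FPKM (SD, n = 4 each), on 4836 to 15581 fragments per library. The log2 change was -0.93 (SE 0.18, 95% interval -1.33 to -0.52, limma adjusted p = 0.0114), and the exact two-sided permutation p of 0.0286 was the smallest that 70 assignments can give. After median-ratio scaling the change was -0.76 (limma adjusted p = 0.0285). Without FG 93, SG 104 and SG 105, the libraries with the highest muscle marker sums, it was -0.74 and not called (limma adjusted p = 0.111), in a comparison of 3 with 2 libraries that called 74 genes in all.

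Among markers of other liver cells, 1 gene each of the sinusoidal endothelial and cholangiocyte lists was called lower in SG. So were Bdh1 and 15.6% of all tested genes. Over 7 sinusoidal endothelial markers the sums were 89.1 to 109 FPKM in FG and 68.1 to 80.9 in SG, with 1 of 7 tested markers, Clec4g, called lower. Without Clec4g the other 6 summed to 40.2 to 51.4 FPKM in FG. In SG 101, 103, 104 and 105 they summed to 40.6, 35.7, 41.3 and 49.7 FPKM, and the groups overlap. Stab1 (0.030), Stab2 (-0.0074), Lyve1 (0.24), Kdr (-0.090), Oit3 (-0.19) and Pecam1 (-0.32) had log2 differences that did not pass. Lyve1 was at 8.36 FPKM in SG 105 and at 1.34, 2.05 and 2.24 FPKM in SG 101, 103 and 104. Over 6 cholangiocyte markers the sums were 21.9 to 27.7 and 13.0 to 19.1 FPKM, most of it from Spp1 (15.9 to 22.0 and 10.5 to 16.0 FPKM), the 1 of 2 tested markers called lower. Without Spp1 the other 5 summed to 2.75 to 11.8 and 1.77 to 3.18 FPKM, which also overlap. Both genes were left out after their values were seen. Neither marker was called after median-ratio scaling. Kupffer cell sums were 115 to 175 and 106 to 174 FPKM with 0 of 7 called. Stellate cell sums were 76.5 to 125 and 73.6 to 97.6 FPKM with 0 of 6 called, and both sums overlapped between groups. The stellate list includes Des, at 32.0 FPKM in FG 93, 11.4 in SG 104, 5.10 in SG 105 and 4.14 in FG 96. These libraries had the highest muscle marker sums, in the same order, and the part of muscle RNA in Des was not tested. In these 4 lists 0 markers were at 0 in every library, and their part in the Bdh1 change was not tested. In bulk RNA, fewer cells of a type and less RNA per cell cannot be told apart.

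Bdh2, on chromosome 3 (135281221 to 135304426), encodes a cytosolic dehydrogenase named for the same reaction. FG 93 to 96 held 5.69, 9.36, 6.85 and 8.21 FPKM, and SG 101, 103, 104 and 105 held 13.0, 10.5, 8.22 and 11.4 FPKM, on 255 to 599 fragments. SG 104 lay below FG 94, and the other 3 SG values were above all of FG. The group means were 7.53 ± 1.60 and 10.8 ± 2.01 FPKM (SD, n = 4 each). The log2 difference of 0.47 (SE 0.17, 95% interval 0.093 to 0.84) did not pass after adjustment over all genes (limma adjusted p = 0.0771). Over 18 alternatives its adjusted p in limma lay between 0.0556 and 0.237.

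FPKM ratios within a library do not depend on scaling between libraries, and they compare the members' changes directly. The FPKM ratio of Bdh1 to Acat1 was 0.819, 0.826, 0.790 and 0.889 in FG 93 to 96, and 0.528, 0.359, 0.411 and 0.263 in SG 101, 103, 104 and 105. FG libraries were close to each other, and every SG library lay below them. The mean log2 ratio, taken from log2(FPKM + 1), differed by -1.12 (exact permutation p = 0.0286, adjusted p = 0.0429 over 3 ratios). The FPKM ratio of Bdh1 to Bdh2 was 18.6, 9.75, 14.8 and 10.3 in FG 93 to 96 and 4.87, 4.55, 7.19 and 3.01 in SG 101, 103, 104 and 105. These groups did not overlap either, and SG 105 was again the lowest. Their log2 ratio differed by -1.40 (exact permutation p = 0.0286, adjusted p = 0.0429). Both p-values are the smallest that 70 assignments can give. Both ratios contain Bdh1, so they are not independent results. Leaving out FG 93, FG 95 or FG 96 gave differences of -1.12, -1.14 and -1.08 for the first ratio. For the second ratio they were -1.24, -1.33 and -1.50. None of these passed the threshold (exact permutation, adjusted p = 0.0857). The groups still did not overlap, and with 1 library fewer the exact test has fewer assignments, so its p-values move in larger steps. Slc16a1 over Slc16a7 was 1.46, 1.03, 1.31 and 1.05 in FG 93 to 96 and 0.683, 1.35, 0.658 and 1.10 in SG 101, 103, 104 and 105. Here the groups overlapped (log2 difference -0.36, exact permutation p = 0.257).

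**Figure D2:**
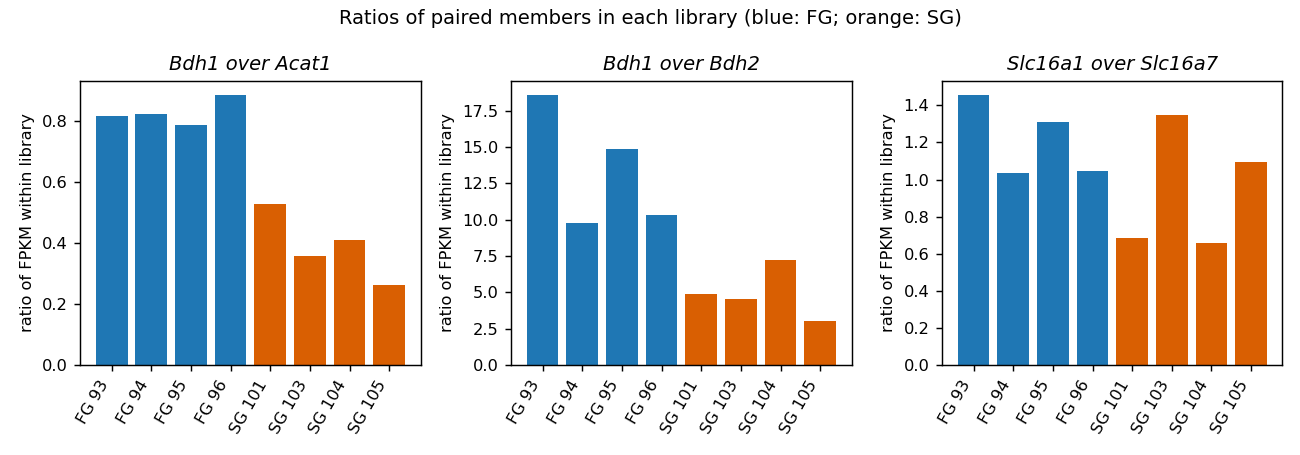
Ratio of FPKM within each library (vertical axes) for Bdh1 over Acat1, Bdh1 over Bdh2 and Slc16a1 over Slc16a7, with 1 bar per library, blue for FG and orange for SG. The first ratio was at least 0.790 in FG and at most 0.528 in SG, and the ratio of the transporters overlapped between groups.

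Slc16a1, on chromosome 3 (104638664 to 104658462), encodes MCT1, which carries lactate, pyruvate and ketone bodies across the plasma membrane. Its values were 12.7, 8.67, 9.74 and 7.89 FPKM in FG 93 to 96 and 4.02, 10.1, 6.15 and 8.93 FPKM in SG 101, 103, 104 and 105. SG 101 and SG 104 lay below all FG libraries, while SG 103 was above FG 94, FG 95 and FG 96. Means were 9.75 ± 2.10 and 7.30 ± 2.75 FPKM (SD, n = 4 each), and the log2 difference of -0.42 did not pass (95% interval -0.97 to 0.13, limma adjusted p = 0.252). Without SG 101, the lowest library, it was -0.20.

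Slc16a7, on chromosome 10 (125219270 to 125389586), encodes MCT2, a transporter with high affinity for pyruvate and ketone bodies. FG 93 to 96 held 8.70, 8.40, 7.45 and 7.53 FPKM, and SG 101, 103, 104 and 105 held 5.88, 7.51, 9.34 and 8.14 FPKM, on 2821 to 4291 fragments. SG 101 was the lowest library and SG 104 the highest, so SG spanned the whole of FG. The log2 difference was -0.062 (95% interval -0.35 to 0.23, limma adjusted p = 0.762), and it was 0.093 after median-ratio scaling. The interval bounds the ratio of SG to FG, on FPKM + 1, between 0.784 and 1.17.

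Slc16a6, on chromosome 11 (109450855 to 109473598), encodes MCT7, which has been described as a 3-hydroxybutyrate exporter in fish liver. It held 0.653, 0.817, 0.537 and 0.621 FPKM in FG 93 to 96, and 0.263, 0.428, 0.384 and 0.642 FPKM in SG 101, 103, 104 and 105, on 93 to 287 fragments. SG 105 overlapped FG, and the other 3 SG libraries lay below it. The difference on log2(FPKM + 1) was -0.22 (exact permutation p = 0.0857), and -0.55 with a pseudocount of 0.1. Its annotated exons share 1052 bases with Amz2 and 48 with Arsg, both on the other strand, and no label says if strand was used in counting. Amz2, a metallopeptidase gene, stood at 4.22 to 6.34 FPKM with no call (limma adjusted p = 0.814). Arsg, a lysosomal sulfatase gene, fell from 1.88 ± 0.156 to 1.24 ± 0.161 FPKM (SD, n = 4 each, limma adjusted p = 0.0266), with the call gone after median-ratio scaling (limma adjusted p = 0.0999) and in the absence of any 1 of FG 93, FG 94, FG 95, FG 96, SG 104 and SG 105. Bdh1 shares 533 exon bases with the antisense gene Gm15743, which was listed at 0 in 7 libraries and had 1 fragment in FG 93.

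Among the other thiolases and the trifunctional protein 0 of 6 were called, and 1 of 6 rose after median-ratio scaling (median changes 0.030 and 0.20, beside -0.14 and 0.0056 over all tested genes). Of ketone body use, 1 of 2 tested genes fell and 0 rose, beside 15.6% and 3.73% of all tested genes. Aacs, the cytosolic synthetase that returns acetoacetate to lipid synthesis, was at 50.6, 62.8, 65.5 and 51.8 FPKM in FG 93 to 96 and at 21.7, 11.2, 13.4 and 8.34 FPKM in SG 101, 103, 104 and 105. Every SG value lay below every FG value, a log2 change of -2.07 (SE 0.24, limma adjusted p = 0.00166). Oxct1, the transferase of ketone oxidation in muscle and heart, was at 7.24 FPKM in FG 93, 3.88 in SG 104, 2.34 in SG 105 and 1.65 in FG 96, and at 1.01 to 1.33 in the other 4 libraries. These are the 4 libraries with the highest muscle marker sums, in the same order, and the part of muscle RNA in Oxct1 was not tested. Its groups overlapped (log2 difference -0.20, limma adjusted p = 0.776), and without FG 93 the difference was 0.24.

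**Figure D3:**
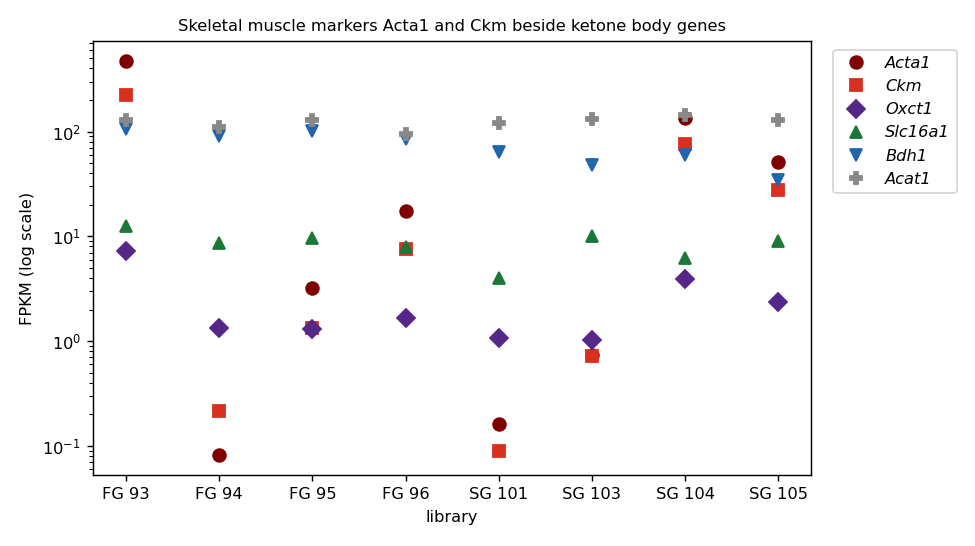
FPKM on a log axis (vertical) of the skeletal muscle genes Acta1 and Ckm beside genes of ketone body metabolism in each of the 8 libraries (horizontal), 1 point per gene and library. In FG 93, Acta1 reached 471 FPKM, Ckm 221 and Oxct1 7.24, each its highest value.

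Of the other monocarboxylate transporters and their chaperones, 13 of 15 were in the table and 6 were tested, of which 1 rose and 0 fell (median 0.12). Over all tested genes 3.73% were called higher and 15.6% lower. Slc16a12, a creatine transporter of this family, rose from 13.4 ± 0.612 to 19.2 ± 3.36 FPKM (SD, n = 4 each, limma adjusted p = 0.0245). It was not called when any 1 of FG 93, FG 95, FG 96 and SG 103 was left out (limma adjusted p up to 0.0585). Bsg, the chaperone basigin that carries MCT1 to the membrane, was at 177 ± 21.3 and 165 ± 17.5 FPKM (SD, n = 4 each, limma adjusted p = 0.571). Emb, the chaperone embigin of MCT2, was at 0.0999 to 0.391 FPKM in FG and 0.0305 to 0.126 FPKM in SG and was not tested. Of the receptors for ketone bodies and lactate, 2 of 3 were in the table and 0 were tested.

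Among genes of fatty acid entry into mitochondria, the supply line of ketogenesis, 4 of 6 tested rose and 1 fell, with a median of 0.39. Over all tested genes 3.73% were called higher and 15.6% lower, with a median of -0.14. Acsl1, an acyl-CoA synthetase, rose from 128 to 166 FPKM in FG to 183 to 367 in SG (log2 change 0.81, limma adjusted p = 0.0206). Slc25a20, the acylcarnitine carrier, rose by 0.51 on the log2 scale (SE 0.099) and Cpt2, which regenerates acyl-CoA in the matrix, by 0.43 (SE 0.075). Cpt1a, the outer-membrane gatekeeper of this entry, rose from 142 ± 12.6 to 182 ± 19.7 FPKM (SD, n = 4 each, limma adjusted p = 0.0398). Acacb, which makes the malonyl-CoA that inhibits the Cpt1a step, fell from 43.8 ± 9.61 to 13.9 ± 3.96 FPKM (SD, n = 4 each, limma adjusted p = 0.00286). Acsl1 missed the threshold when FG 95, SG 104 or SG 105 was left out (limma adjusted p up to 0.0529), and Cpt1a when FG 93, FG 95, FG 96, SG 103, SG 104 or SG 105 was (up to 0.113) or after quantile normalization (0.0728).

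**Figure D4:**
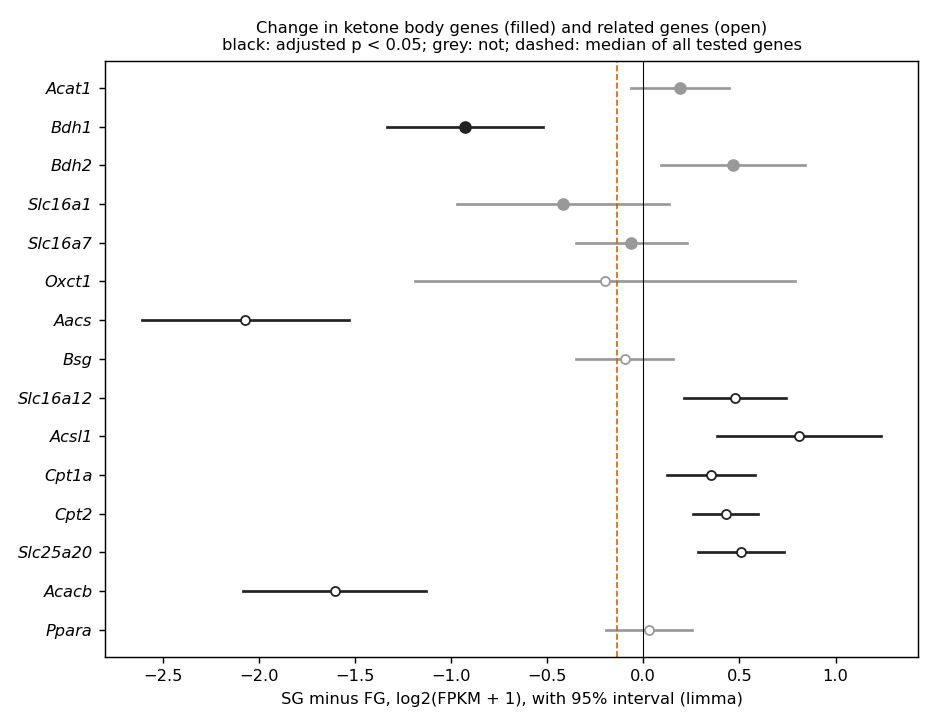
SG minus FG on log2(FPKM + 1) with 95% intervals from limma (horizontal) for the tested ketone body genes and related genes (vertical), black where the adjusted p was below 0.05 and grey otherwise, with the median of all tested genes dashed. Bdh1 at -0.93 and Aacs at -2.07 stood on the lower side, while Acsl1 at 0.81 and Cpt1a at 0.35 stood on the higher side.

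In mitochondrial beta-oxidation, beside 3.73% higher and 15.6% lower over all tested genes, 1 of 9 tested genes rose and 0 fell (median 0.042). This was Etfb, a subunit of the electron transfer flavoprotein (log2 change 0.37, limma adjusted p = 0.0216), which was not called with FG 93, FG 94, FG 96 or SG 104 left out (limma adjusted p up to 0.0608). Among regulators of ketogenesis, beside the same shares over all tested genes, 1 of 10 rose and 1 fell (median -0.16). Creb3l3, a membrane-bound transcription factor of fasting, rose from 121 ± 9.78 to 155 ± 13.2 FPKM (SD, n = 4 each, limma adjusted p = 0.0305). This call needed each of FG 93, FG 95, SG 103 and SG 104 (limma adjusted p up to 0.0865 when 1 was removed). Fgf21, a hepatokine induced in fasting, fell, with a log2 change of -1.47 (limma adjusted p = 0.0168). Ppara, the nuclear receptor that drives ketogenic genes, was at 40.9 ± 4.74 and 41.6 ± 2.03 FPKM (SD, n = 4 each, limma adjusted p = 0.846).

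Acat1 also serves isoleucine breakdown, where 2 of 9 tested genes rose and 0 fell (median 0.074), beside 3.73% and 15.6% of all tested genes. Dbt, the transacylase of branched-chain ketoacid dehydrogenase, rose from 22.0 ± 2.90 to 40.6 ± 8.20 FPKM (SD, n = 4 each, limma adjusted p = 0.00794). Hsd17b10, the dehydrogenase just before the thiolase step, rose from 117 ± 14.0 to 176 ± 11.9 FPKM (SD, n = 4 each, limma adjusted p = 0.00847). In lactate and pyruvate handling, beside the same shares over all tested genes, 1 of 6 tested genes fell and 0 rose (median -0.17). This was Mpc2, a subunit of the mitochondrial pyruvate carrier, at -0.30 (limma adjusted p = 0.0436), which was not called after median-ratio scaling (limma adjusted p = 0.372) or with FG 93, FG 94, FG 95, FG 96, SG 101, SG 103 or SG 105 left out. In the order given, the lists with tested genes held 6, 2, 6, 6, 9, 10, 9 and 6 of them. Over these lists 13 genes were called, beside 19.4% of all tested genes, and a difference from that share was not tested. With no filter on low values 7 of the 13 were called, without Slc16a12, Acsl1, Cpt1a, Creb3l3, Fgf21 and Mpc2. When FG 93, SG 104 and SG 105 were left out together, 0 were.

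By Pearson correlation of log2(FPKM + 1) over the 8 libraries, Vcp (r = 0.99) was among the genes most like Bdh1. These r values include the difference between the groups and are a description. Vcp, which encodes a hexameric ATPase of protein quality control, was at 107, 92.5, 102 and 87.6 FPKM in FG 93 to 96 and at 77.7, 68.6, 74.8 and 58.3 FPKM in SG 101, 103, 104 and 105. Its order of libraries within SG was that of Bdh1, with SG 101 highest and SG 105 lowest. Because Vcp was picked for its likeness to Bdh1, a like order and a lower level in SG follow from that choice. Vcp was called lower in SG (log2 change -0.48, limma adjusted p = 0.0204). Unlike Bdh1, it was not called after median-ratio scaling (limma adjusted p = 0.104). The Vcp call was also lost without FG 93, FG 95 or SG 103 (limma adjusted p up to 0.0630). Nearest to Bdh2 were Serpind1 (r = 0.96), Plxnb1 (r = 0.95) and Serpina1d (r = 0.95), the last a member of a family of near-identical genes whose reads may be split. Nearest to Acat1 were Gm20522 (r = 0.93), Prkacb (r = 0.92) and Ppp2r2d (r = 0.92). For Slc16a1 they were Atf4 (r = 0.97), Tnip2 (r = 0.97) and Adck5 (r = 0.96), and for Slc16a7 Rheb (r = 0.95), Ubp1 (r = 0.94) and Dcaf6 (r = 0.94).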

How the data were processed

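The authors deposited FPKM values for 21358 genes in 8 mouse liver libraries. All 8 value columns carry a sample's label, and 0 were left without one. Per the labels' protocols, RNA was isolated with TRIzol, and mRNA was enriched and sequenced in pairs. The series' design text names HISAT2 for alignment and FPKM as the unit. The tools fastp, HTSeq and DESeq2 and the builds GRCm38 and mm10 also stand in the submitters' processing notes, without versions.

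From these values, log2(FPKM + 1) was fitted with limma 3.58.1 in R 4.3.3 (empirical Bayes with a mean-variance trend, no covariates, two-sided, Benjamini-Hochberg over 9867 genes with at least 1 FPKM in at least 4 libraries). Single genes and ratios also had an exact permutation test. The scripts were tested on simulated data. Whole fragments were recovered from the FPKM steps within a tolerance of 0.005 fragments, for depth and for 1 alternative, limma voom. Intervals cover the spread between libraries only. The members, lists and tests were chosen with earlier results of these data known. Named genes were the members, related genes listed whatever their values, up to 4 called genes per list, the 3 genes most like each tested member and overlapping genes, some of which are not reported here. The motifs were listed after the sequences were seen. Alternatives varied the pseudocount, filter, scaling, variance model, weights and libraries.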

Additional observations from a re-analysis of the deposited data

Results flagged for a closer look

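In 8 of 92 groups of 4 values examined, 1 library stood far apart from the rest of its group by Dixon's criterion. Chance gives about 1 in 20 such groups when values are normally distributed and genes are independent and picked without regard to their values. Genes at or near 0, such as Gm15743, do not meet the first condition. Acta1, Ckm, Mb and Pnlip were added as muscle and pancreas markers, and several examined genes vary together. The count of 8 therefore cannot be set against that share. Library FG 93 stood apart for Oxct1 (7.24 FPKM) and for the muscle genes Acta1 (471 FPKM), Ckm (221 FPKM) and Mb (174 FPKM). FG 94 stood apart for Pnlip, a pancreatic lipase gene (59.7 FPKM), and for Arsg (2.11 FPKM). SG 101 stood apart for Bsg (191 FPKM). Gm15743 was at 0.0138 FPKM in FG 93, a count of 1 fragment, and listed at 0 elsewhere.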

How the results depend on the processing

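No paired analysis was possible because the groups share no replicate numbers. Among 18 alternatives the Bdh1 call held in 17, including each comparison without 1 library (log2 change -1.04 to -0.75, limma adjusted p 0.00748 to 0.0381). Without the 3 libraries highest in muscle markers, an alternative chosen after seeing the data, Bdh1 was at -0.74 and not called. In that comparison 0 members, 0 related genes and 74 genes were called from fewer samples. The ratios of Bdh1 to Acat1 and Bdh2 were at -0.93 and -1.22. With so few libraries the exact test has too few assignments for any ratio to pass, so it decides nothing there. Calls over all genes were 1912, 1133 with no filter, 984 after median-ratio, 968 after trimmed-mean and 1078 after quantile scaling. Without 1 library they were 834 to 2363 (834 without FG 93, 1102 without FG 95, 1087 without SG 103, 1036 without SG 104 and 1036 without SG 105). Related genes called were 13, 7 with no filter and 8 to 19 without 1 library. With array weights 2 members were called, with Acat1 at 0.33. Slc16a6 was at -0.55 with a pseudocount of 0.1. Without 1 library the log2 ratio changes were -1.27 to -0.95 (Bdh1 over Acat1) and -1.59 to -1.19 (Bdh1 over Bdh2). Signs turned only for named genes that were not called. With median-ratio scaling the log2 difference was 0.10 for Amz2, 0.078 for Bsg, 0.085 for Dcaf6, 0.13 for Rheb, 0.093 for Slc16a7 and 0.034 for Ubp1. With trimmed-mean scaling the log2 difference was 0.096 for Amz2, 0.072 for Bsg, 0.080 for Dcaf6, 0.12 for Rheb, 0.089 for Slc16a7 and 0.029 for Ubp1. After quantile normalization the log2 difference was 0.11 for Amz2, 0.093 for Dcaf6, 0.10 for Rheb, 0.091 for Slc16a7 and 0.029 for Ubp1. With array weights the log2 difference was 0.017 for Amz2, 0.11 for Dcaf6, 0.11 for Oxct1, 0.030 for Rheb and 0.056 for Slc16a7. Without the 3 libraries highest in muscle markers the log2 difference was 0.037 for Bsg. Without 1 library it ranged from -0.11 to 0.042 for Amz2, -0.17 to 0.12 for Dcaf6, -0.45 to 0.24 for Oxct1, -0.052 to 0.070 for Ppara, -0.013 to 0.065 for Prkacb, -0.088 to 0.036 for Rheb and -0.15 to 0.047 for Slc16a7. The cause was not tested.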

Other observations

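A gene of lactate handling followed the muscle markers as Oxct1 did. Ldhb, the heart-type lactate dehydrogenase subunit, named after its values were seen, was at 30.1 FPKM in FG 93, 10.7 in SG 104, 5.80 in SG 105 and 4.82 in FG 96. In the other 4 libraries it lay between 1.91 and 3.65 FPKM. Its groups overlapped (log2 difference -0.49, limma adjusted p = 0.620), and the part of muscle RNA was not tested.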
